A study of Rattus norvegicus with 3 samples.

Results

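The cytosolic ribosome is built from ribosomal RNA and a set of ribosomal proteins, which are named Rpl in the large subunit and Rps in the small subunit. Their mRNAs are among the most abundant in most tissues, the kidney included, and most of them begin with a run of pyrimidines, the 5′ terminal oligopyrimidine (TOP) tract, through which mTOR signalling controls their translation. An array measures the mRNA, so it does not see that control of translation. Probes were taken where the RefSeq accession of the probe belongs to a rat gene with the symbol Rpl or Rps and a number, or to Rplp0, Rplp1, Rplp2 or Rpsa, and S6 kinases and pseudogenes were left out. The array carried 142 such probes for 81 genes, and 136 probes of 77 genes were well above background in 1 same channel on all 3 arrays, among 14183 genes tested in all. Of these, 8912 have a symbol in the table, and the other 5271 are accessions or probes without one, counted as genes here. The 4 genes that did not pass, Rpl27l2, Rpl39l1, Rpl3l and Rps12l4, all have names of copies or tissue-restricted relatives, and they were not well above background in either channel on any array. For all 77 genes tested, both colours gave signal well above background on each array.

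The study concerned gamma-aminobutyric acid (GABA), an amino acid best known as an inhibitory neurotransmitter, and erythropoietin in rats, and its arrays compare gene expression in the kidney. Male Sprague-Dawley rats, 5 weeks old on arrival, drank water with 200 ppm GABA (the group G200) or served as controls on the same standard diet, and RNA came from kidney without tumor. Each of 3 two-colour arrays held RNA of a G200 rat labelled with Cy5 (red) and control RNA labelled with Cy3 (green). The dyes were never swapped, so an effect of the dye and an effect of GABA cannot be told apart. With 3 arrays, the precision of the values is limited.

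The labels give 3 rats a group. Yet with a trend over brightness removed, the 3 control channels differed by no more than replicate spots of 1 RNA. For probes spotted several times, the median squared difference between arrays, centred on its median, was 0.514 to 0.883 times the variance of that difference given by replicate spots in the green channel (1111 probes) and 2.94 to 9.01 times in the red channel (1087 probes). As a median of squares, this ratio lies below 1 where spots are the only source of difference, so the centred green values are not to be read against 1. With a trend over brightness also removed it was 0.33 to 0.443 and 2.32 to 7.08 times. The control is therefore counted as 1 sample, and a ratio tested against 0 leaves out the spread between control rats. All values are log2 ratios of G200 over control after loess normalization within each array, and a gene passed where its adjusted p in limma, over all genes tested, was under 0.05.

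After loess, ribosomal protein genes were split between both directions, and this split does not hold under another scaling of the dyes. Of the 77 genes, 13 were higher in G200 (16.9%, against 11.5% of all genes tested) and 13 were lower (16.9%, against 25.9%). Among the 8912 genes with a symbol, 11.8% were higher and 22.4% lower. The share of lower ribosomal protein genes was thus below that of all genes, the share of higher genes somewhat above it, and no test compared the lists. With the authors' log ratio the share of higher genes was below that of all genes instead (9.09%, against 15.2%). The median log2 ratio of the 77 genes was -0.031, beside -0.049 over all genes tested, and the medians on arrays 1, 2 and 3 were 0.033, -0.09 and -0.04. Without array 3, 1 gene was higher (1.3%, against 1.29% of all genes tested) and 6 were lower (7.79%, against 10.1%), so the calls became fewer among all genes too. Without array 1 there were 7 higher (9.09%, against 6.11%) and 12 lower (15.6%, against 18.8%), and without array 2 there were 14 higher (18.2%, against 11.4%) and 14 lower (18.2%, against 23.6%). After loess no gene reached a change of 2-fold, with means from -0.66 to 0.66. The same sign on all 3 arrays was seen in 23 of the 77 genes above 0 (all genes tested: 26.6%) and 32 of the 77 below 0 (all genes tested: 41.7%). With each array centred on its median in place of loess, the median of all genes moved to 0.27 and that of the ribosomal protein genes to 0.78, all 77 means lay above 0, and 65 genes passed as higher (84.4%, against 35.2% of all genes tested) and 0 as lower (against 8.79%) in limma, with 0 lower also at an unadjusted p under 0.05. All passing calls were then in 1 direction, whereas 50% were higher after loess; over all genes tested the share of calls that were higher went from 30.8% to 80%. Several ribosomal protein genes exceeded a change of 2-fold after centring, up to Rps29 with a mean of 1.54. Relative to the median of all genes, the ribosomal protein genes stood 0.018 higher after loess and 0.51 higher after centring.

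This dependence goes with the brightness of the probes. Of the 77 genes, 72 lay among the brightest 10% of all genes tested, 4 in the next 10%, and 1, Rpl15, was far dimmer. After median centring, the median log2 ratio of all genes climbed from -0.23 in the dimmest 10% of genes to 0.70 in the brightest 10%. The 72 ribosomal protein genes among the brightest 10% had a median of 0.76 there, beside 0.70 for the other 1347 genes of the same brightness. After loess the same 72 genes had a median of -0.051 and the other 1347 a median of -0.084, with 13.9% higher and 18.1% lower among the former and 16.4% higher and 35.3% lower among the latter. Before any normalization, the median log2 ratio of the ribosomal protein genes was 1.71, 0.56 and 1.12 on arrays 1, 2 and 3, and that of the other bright genes 1.54, 0.56 and 1.05. Array by array, the unnormalized values of both sets of genes lay close to each other. For the rise with brightness, dye and RNA cannot be told apart in these arrays.

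**Figure D1:**
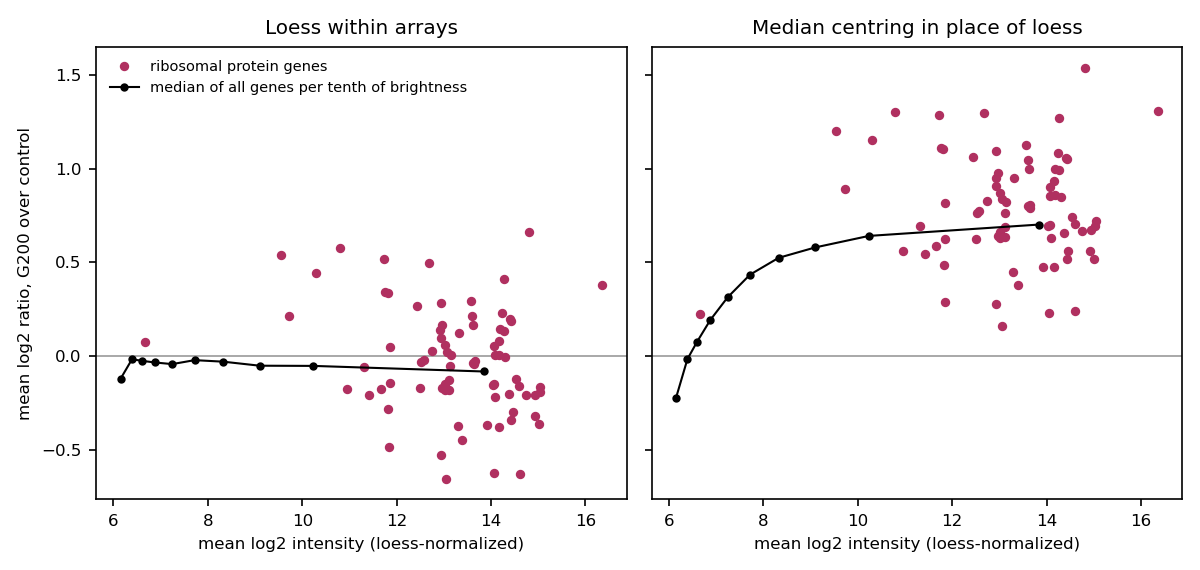
Mean log2 ratio of G200 over control (y axis) against mean log2 intensity (x axis) for the 77 ribosomal protein genes (points), with the median of all genes in each of 10 bins of brightness (line), after loess (left) and after median centring (right). The points lie on both sides of 0 on the left, with a median of -0.031, and all above 0 on the right, with a median of 0.78, where the line climbs from -0.23 to 0.70.

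The calls after loess were also counted by subunit, and after median centring no gene of either subunit was lower. In the small subunit, 7 of 30 genes were higher (23.3%) and 1 was lower (3.33%), with a median of 0.014. In the large subunit, 6 of 47 were higher (12.8%) and 12 were lower (25.5%), with a median of -0.058. The shares of the large subunit lay close to those of all genes tested, 11.5% and 25.9%. The difference between the subunits was not tested. Within both subunits the interquartile range covered both signs, from -0.17 to 0.23 in the small and from -0.26 to 0.13 in the large subunit.

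The highest ratio belonged to Rps29, a zinc-binding protein of the small subunit. Its log2 ratios were 0.80, 0.54 and 0.65 on arrays 1, 2 and 3, all well above 0. The mean was 0.66 ± 0.076 (moderated SE of limma, n = 3), a 1.59-fold higher level in G200 (limma adjusted p = 0.0023). Its second probe was also above 0 on each array, at 0.59, 0.31 and 0.35. Rps29 was higher in 15 of 17 other settings at adjusted p under 0.05 and had a positive mean in all 17. It was the only ribosomal protein gene still higher without array 3.

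The other 5 of the 6 highest were Rpl5, Rps26, Rps13, Rps7 and Rps25, each with 1 probe. Rpl5, Rps26 and Rps25 had mean log2 intensities of 10.79, 9.54 and 10.3, beside a median of 13.31 over the ribosomal protein genes. They lay in the second brightest 10% of genes. The 4 ribosomal protein genes there had a median log2 ratio of 0.49, beside -0.051 for the 72 in the brightest 10%. All genes of the second brightest 10% had a median of -0.053. A link of these ratios to brightness was not tested. Rpl5 binds 5S ribosomal RNA together with Rpl11 and takes part in restraining Mdm2 when ribosome assembly is disturbed. Its log2 ratios were 1.01, 0.24 and 0.48, with array 1 far above array 2. The mean of 0.57 ± 0.14 (moderated SE of limma, n = 3) passed (limma adjusted p = 0.026). Its partner Rpl11 had -0.15, -0.06 and -0.17 and did not pass (limma adjusted p = 0.18), so the genes of the pair had opposite signs after loess, and both were above 0 after centring. Rps26, which lies near the mRNA exit channel, had 0.68, 0.16 and 0.77, low on array 2 (mean 0.54, limma adjusted p = 0.019). Rps13 had 0.75, 0.081 and 0.72, again low on array 2 (mean 0.52, limma adjusted p = 0.032). Rps7 had 0.80, 0.24 and 0.45, lowest on array 2 (mean 0.50, limma adjusted p = 0.019). Rps25, which some viral RNAs need for their translation, had 0.53, 0.28 and 0.53 (mean 0.44, limma adjusted p = 0.0086). In each of these 5 genes array 2 gave the smallest ratio of the 3, and none of the 5 passed without array 3. Rps13 also lost its call without array 1 and with the authors' log ratio.

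The remaining higher genes were Rpl23, Rpl41, Rpl37l1, Rpl22l1, Rps20, Rps6 and Rpl7, with means from 0.21 for Rpl7 to 0.41 for Rpl23. Rps6, the substrate of the S6 kinases, had 0.36, 0.21 and 0.29, above 0 on every array (mean 0.29 ± 0.067, moderated SE of limma, n = 3, limma adjusted p = 0.021). A second Rps6 probe gave a mean of 0.28. Rps6, Rps20 and Rpl37l1 lost their calls without array 1 and without array 3, and Rpl7 on leaving out any 1 array. Rpl22l1 is a paralogue of Rpl22 that can take its place in the ribosome. Its ratios were 0.61, 0.25 and 0.15 (mean 0.34, limma adjusted p = 0.045), and it too lost its call on leaving out any 1 array. Rpl22 itself had -0.042, -0.20 and -0.31 and did not pass (limma adjusted p = 0.11). The second probe of Rpl22 gave 0.17, -0.083 and -0.10. The difference between Rpl22 and Rpl22l1 was not tested.

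The lowest ratio belonged to Rpl18, a protein of the large subunit with 1 probe. Its log2 ratios were -0.62, -0.76 and -0.59, well below 0 on each array. The mean was -0.66 ± 0.07 (moderated SE of limma, n = 3), a 1.58-fold lower level in G200 (limma adjusted p = 0.0018). With median centring the mean became 0.16, above 0, yet still the lowest of all ribosomal protein genes tested. The other genes of the brightest 10% had a median of 0.70 there, from which Rpl18 differed by -0.54. Rplp2 is an acidic phosphoprotein of the stalk of the large subunit, where elongation factors bind. It had -0.71, -0.56 and -0.62 (mean -0.63 ± 0.067, moderated SE of limma, n = 3, limma adjusted p = 0.0018). Its stalk partner Rplp1 had -0.064, 0.068 and 0.013 and did not pass (limma adjusted p = 0.95). Rplp0, which anchors the stalk, had -0.25, -0.34 and 0.093 and did not pass either (limma adjusted p = 0.23). The second probe of Rplp0 was below 0 on each array, at -0.31, -0.42 and -0.14. Rpl4, which lines the exit tunnel, also with 1 probe, had -0.53, -0.48 and -0.58, nearly alike on the 3 arrays (mean -0.53, limma adjusted p = 0.0029).

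The other 3 of the 6 lowest, Rpl14, Rpl17 and Rpl36, each had a second probe of the other sign. The brightest probe of Rpl14 gave -0.64, -0.74 and -0.49 (limma adjusted p = 0.0027), and its second probe gave 0.29, -0.30 and 0.11. The brightest probe of Rpl17 gave -0.46, -0.46 and -0.55 (limma adjusted p = 0.0037), and its second probe 0.48, -0.13 and 0.05. The brightest probe of Rpl36 gave -0.49, -0.41 and -0.44 (limma adjusted p = 0.0046), and its second probe 0.19, 0.095 and 0.11. In Rpl36 the probes thus differed in sign on every array. Other lower genes were Rpl27, Rpl13, Rpl32, Rpl21, Rpl37a and Rpl38, with means from -0.38 for Rpl32 to -0.32 for Rpl38. Median centring raised the ratios of the 77 genes by a median of 0.83. With this shift all 13 lower genes turned to a mean above 0, and the 13 higher genes stayed above it. The other genes of the brightest 10% had a median of 0.70 there. All 13 lower genes stayed below that median, and the 13 higher genes lay above it.

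**Figure D2:**
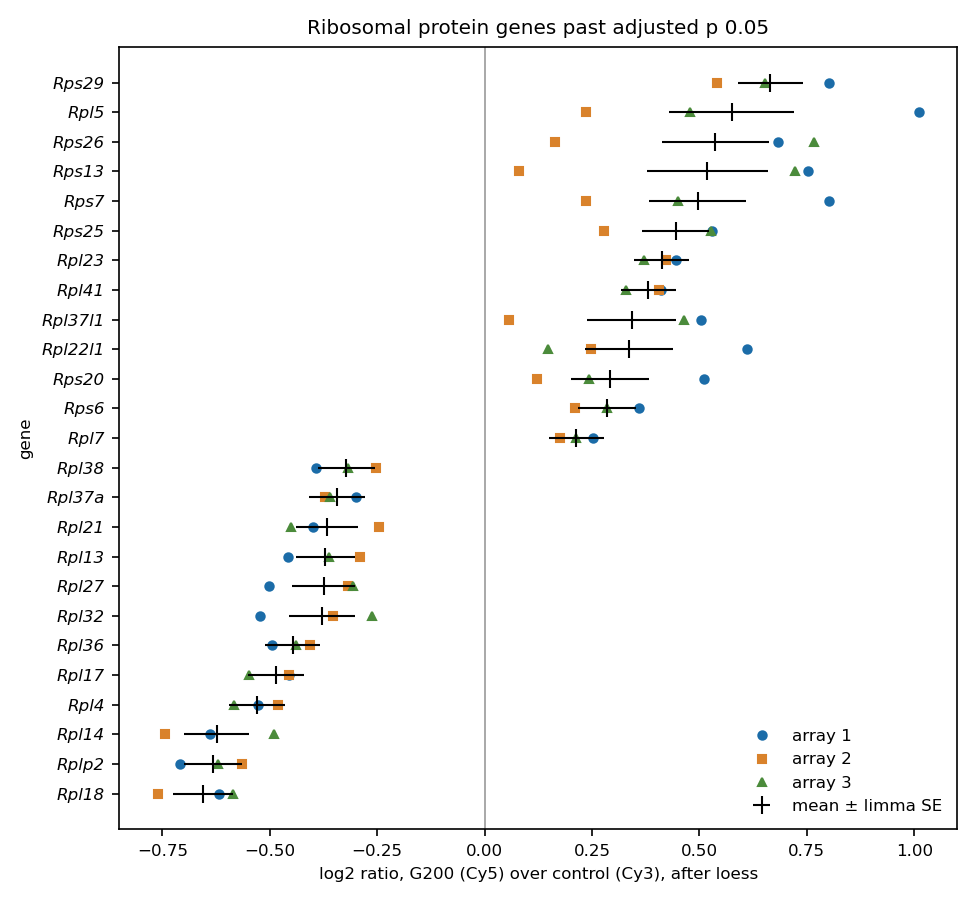
Log2 ratio of G200 over control after loess (x axis) on each of the 3 arrays (symbols) for 25 ribosomal protein genes (y axis) with a limma adjusted p under 0.05, with the mean and its limma SE (black). The 13 higher genes run up to Rps29 at 0.66 and the 12 lower genes shown down to Rpl18 at -0.66. After median centring the lower genes lie above 0, yet below 0.70, the median there of the other genes in the brightest 10%.

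Probes of 1 gene often did not give 1 answer. Of the 77 genes, 47 had several probes that passed the filter, and in 23 of them (48.9%) the probe means lay on both sides of 0, against 498 of 1342 (37.1%) of all genes with several probes. The median range between the probes of a ribosomal protein gene was 0.249, larger than the median absolute log2 ratio of all 77 genes, 0.183, as also held over all genes (0.197 and 0.184). All 5 higher genes with several probes (Rpl22l1, Rpl37l1, Rpl7, Rps29 and Rps6) had every probe above 0. Of the 9 lower genes with several probes, 7 had a probe above 0, namely Rpl14, Rpl17, Rpl21, Rpl32, Rpl36, Rpl37a and Rpl38. Of the 33 genes with several probes that did not pass, 16 had probes on both sides of 0. With the mean of all probes of a gene in place of the brightest probe, 44 of the 77 genes lay above 0, beside 35 by the brightest probe. By that mean 15 genes were higher (19.5%, against 11.5% of all genes) and 9 lower (11.7%, against 25.7%). The other probes thus leaned upward of the brightest ones, which bears on the contrast between higher and lower genes. Some genes that did not pass by their brightest probe had a second probe further from 0. In Rps27 it lay above 0, at 0.87, 0.43 and 0.61, and in Rplp0 below 0, at -0.31, -0.42 and -0.14. Rat carries many near-identical processed copies of these genes, and probe sequences were not analysed here, so cross-hybridization to copies was not tested.

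**Figure D3:**
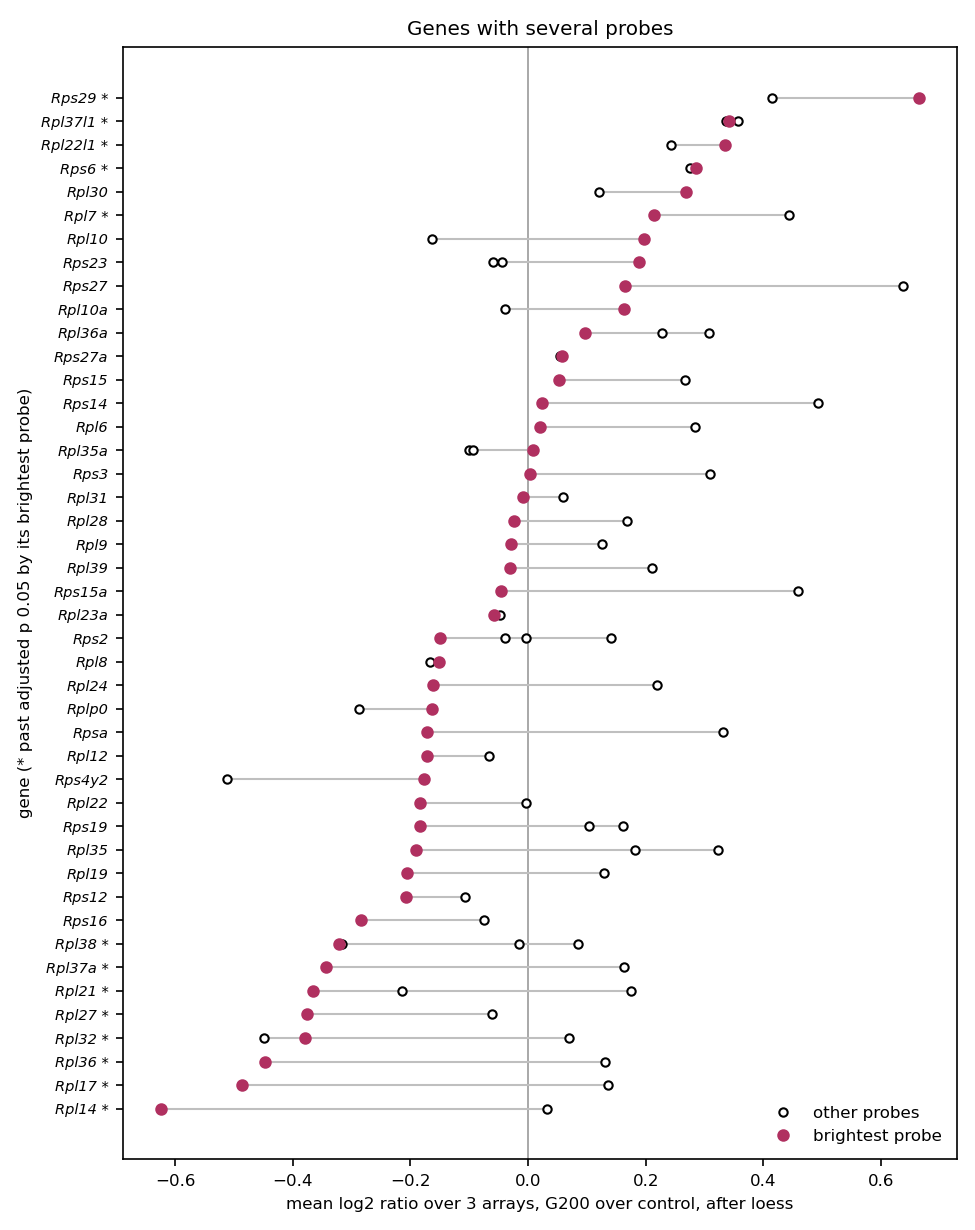
Mean log2 ratio of G200 over control on 3 arrays after loess (x axis) for each probe of 44 ribosomal protein genes with several probes (y axis), with the brightest probe filled and the others open. In 22 of these genes the probes lie on both sides of 0, among them 7 of the 8 lower genes shown (marked, in the bottom rows); with median centring the mean of the brightest probe lies above 0 in every gene.

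Some members with known roles did not pass, whereas Rpl5, Rplp2, Rps6 and Rpl22l1, described above, did. Rpsa, the laminin receptor precursor of the small subunit, had -0.22, -0.09 and -0.21 by its brightest probe and 0.54, 0.23 and 0.22 by its second, and did not pass (limma adjusted p = 0.09). Rps19 and Rps14 are among the genes lost or mutated in forms of inherited or acquired anemia, as are Rpl5, Rps26 and Rps7 above. Rps19 had -0.15, -0.19 and -0.21 (limma adjusted p = 0.066), with the means of its other probes above 0. Rps14 had 0.28, -0.09 and -0.12 (limma adjusted p = 0.86) and a second probe at 0.92, 0.28 and 0.27. Rps3, which also has a part in DNA repair, had 0.14, -0.17 and 0.044 (limma adjusted p = 0.97) and a second probe at 0.56, -0.071 and 0.44. Rps27a, made as a fusion with ubiquitin, had 0.091, 0.13 and -0.051 (limma adjusted p = 0.55). Rpl3, at the peptidyl transferase centre, had 0.14, 0.068 and 0.21 (limma adjusted p = 0.15), and its muscle relative Rpl3l was not well above background. Rpl13a had -0.27, -0.097 and -0.25 (limma adjusted p = 0.062). A p that misses the threshold does not show that these genes were unchanged.

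Replicate spots show how precise a single array was. The Rps4x probe was spotted 10 times (8 spots used on array 3), and its mean was 0.47, -0.11 and 0.29 on arrays 1, 2 and 3, with an SD between spots of 0.086, 0.11 and 0.09. The arrays thus differed by more than the spots. The Rpl15 probe, also spotted 10 times (8 used on array 1), gave 0.044, 0.083 and 0.10, with an SD between spots of 0.091, 0.071 and 0.062. Mean log2 intensities were 9.73 for the Rps4x probe and 6.66 for the Rpl15 probe, beside a median of 13.31 over the ribosomal protein genes. The spread between spots of such dim probes need not hold for the brighter ones. Rpl15 did not pass (limma adjusted p = 0.38).

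The start of the genes carries a feature the members share. Of the 77 genes, 62 were matched by symbol to the RefSeq promoter table (GRCr8), and the first start listed per gene was used, 250 bases before to 50 after it. A run of at least 6 bases of C and T overlapping the 10 bases on either side of the start was found in 50 of 62 (80.6%), against 28.3% of 27457 promoters in all. The hexamer CCGGAA or its reverse complement, the core of ETS sites, was in 50% against 15.8%, and GCCATC or its reverse complement, the core of YY1 sites, in 29% against 14.7%. The run was in 6 of 8 matched higher genes, 8 of 10 lower genes and 36 of 44 others, so it was common among all 3 sets. A match is a description of letters and not evidence of a site. The 3 highest and the 3 lowest genes that passed, with a run and a promoter in the table, are given from 30 bases before to 20 after the listed start, with the run in capitals, to show where these runs lie. The run in capitals ends before the listed start in Rpl5 and Rplp2, begins after it in Rps13 and lies across it in Rps26, Rpl4 and Rpl14. Rps13 also has a shorter run of 6 bases before the listed start, which is not in capitals. The windows are Rpl5 at chr14:1995206-1995255 (minus strand), Rps26 at chr7:1643385-1643434 (minus), Rps13 at chr1:180009641-180009690 (minus), Rpl4 at chr8:73566447-73566496 (plus), Rpl14 at chr8:129163590-129163639 (plus) and Rplp2 at chr1:205975891-205975940 (plus).
Rpl5: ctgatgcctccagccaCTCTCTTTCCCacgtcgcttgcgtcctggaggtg
Rps26: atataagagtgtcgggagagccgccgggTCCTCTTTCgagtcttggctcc
Rps13: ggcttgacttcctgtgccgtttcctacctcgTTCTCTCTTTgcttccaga
Rpl4: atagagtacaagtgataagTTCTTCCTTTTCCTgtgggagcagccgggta
Rpl14: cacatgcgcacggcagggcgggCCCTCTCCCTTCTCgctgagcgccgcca
Rplp2: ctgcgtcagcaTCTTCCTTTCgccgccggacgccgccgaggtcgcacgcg

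Other genes of translation were counted in lists that share genes, Npm1 and Eef1d among them, and no test compared the lists. Of 14 other mRNAs with a TOP tract, 2 were higher and 4 lower (median 0.097), from Npm1 at 0.49, a nucleolar chaperone, to Eef1d at -0.45 (0.32 after median centring), an exchange factor of elongation factor 1. Of 31 initiation factors, 12 were higher and 4 lower (median 0.14), from Eif3m at 0.56 to Eif3j at -0.41 (0.0044 after median centring), both subunits of eIF3. Of 11 elongation and termination factors, 1 was higher (Gspt1, 0.27) and 3 were lower, down to Eef1a2 at -0.55. Gspt1 lost its call on leaving out any 1 array, and Eef1a2 lost its call with median centring (-0.039). Of 29 genes of ribosome assembly and RNA polymerase I, 1 was higher (Npm1) and 7 were lower (median -0.074). The lowest was Dkc1 at -0.96, the pseudouridine synthase of the nucleolus. With median centring Dkc1 was at -0.34 and lost its call. Of 13 genes of mTOR signalling, S6 kinases and TOP mRNA binding, 1 was higher (Rps6ka3, 0.35) and 6 were lower (median -0.20), down to Rps6kb2 at -0.96. Among all genes tested 11.5% were higher and 25.9% lower.

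The mitochondrial ribosomal proteins and the proteasome subunits are also sets of many subunits of 1 machine. Of 63 mitochondrial ribosomal protein genes, 13 were higher (20.6%, against 11.5% of all genes tested) and 13 lower (20.6%, against 25.9%), with a median of 0.039. Their ratios ran from -1.39 for Mrpl10 to 0.64 for Mrpl42. Of 36 proteasome subunit genes, 13 were higher (36.1%) and 5 lower (13.9%), with a median of 0.07, from Psma4 at -0.50 (0.26 after median centring) to Psma1 at 0.57. No test compared these lists with the cytosolic ribosomal proteins.

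**Figure D4:**
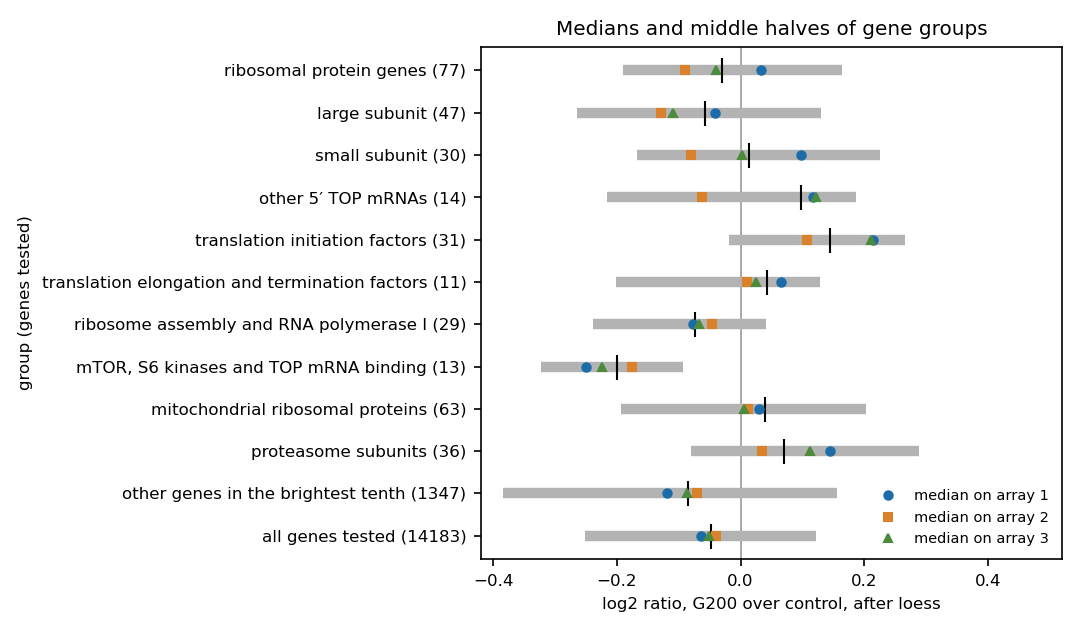
Median log2 ratio of G200 over control after loess (x axis) for each group of genes (y axis, number tested in brackets), over the means (black tick) and on each of the 3 arrays (symbols), with the interquartile range as a grey bar. The cytosolic ribosomal proteins have a median of -0.031, all genes -0.049 and initiation factors 0.14; with median centring the median of all genes moves to 0.27.

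Markers of the kidney were present, and markers of liver differed strongly between the channels. Kidney markers tested were 7 of 8 for the proximal tubule, 4 of 4 for the thick ascending limb, 8 of 9 for the collecting duct and 5 of 5 for podocytes, with medians of 0.23, 0.25, 0.19 and 0.36. On arrays 1, 2 and 3 the medians were 0.46, 0.097 and 0.22 for the proximal tubule, 0.30, 0.15 and 0.30 for the thick ascending limb, 0.29, 0.21 and -0.029 for the collecting duct and 0.72, 0.059 and 0.24 for podocytes. Of these 24 markers, beside 11.5% higher and 25.9% lower among all genes tested, 6 were higher, among them Umod (0.87) and Atp6v0d2 (0.53), and 1 was lower, Slc4a1 (-0.68, and -0.012 after median centring). All 12 liver markers were lower in G200, with medians of -1.26, -3.01 and -4.19 on arrays 1, 2 and 3 and means from -4.05 for Apoc1 to -1.22 for Cyp2c11. Cyp2c11 had -0.13 on array 1. It lost its call with median centring (-0.52), with the authors' log ratio, without array 2 and without array 3 (-0.76), among other settings. The summed normalized signal of the 12 liver markers was 130200, 133700 and 157100 in the control channels and 37670, 11070 and 4437 in the G200 channels. Ttr or Alb was the brightest in each channel. The control channels thus gave far more signal for these transcripts, and every ratio in this report is taken against them. Where they came from was not tested. Erythroid markers were 3 of 6 tested, none passed, and array 3 stood apart with a median of -1.23 beside 0.028 and -0.12. Of 4 lymphocyte markers tested of 10, none passed, and Cd2, Cd8a, Cd3e and Cd79b were not above the filter. Of 6 macrophage markers 1 was lower (C1qb, -0.43, and 0.23 after median centring), of 5 endothelial markers 1 was lower (Pecam1, -0.56, and 0.14 after median centring), and of 7 markers of proliferating cells 3 were higher (42.9%) and 1 lower (14.3%; Mki67, -0.23, and 0.19 after median centring), with a median of 0.20. For such cell types, in bulk tissue, fewer cells of a type and less RNA per cell cannot be told apart. The distal convoluted tubule had 1 marker tested, Slc12a3, at 1.23, -0.0032 and -0.20, and no skeletal muscle marker passed the filter. The part of these markers in the values of the ribosomal protein genes was not tested.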

How the data were processed

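The deposited files hold, per the file headers, Feature Extraction 11.5.1.1 spot and local background intensities of each colour, together with a log10 ratio (Cy5 to Cy3) that the authors' run of that program had already dye-normalized. Accessions were named through the RefSeq table (GRCr8), which gave 60.4% of 30367 probes a symbol. In limma 3.58.1 (R 4.3.3), median intensities of 44254 spots were corrected by normexp (offset 50) and normalized by loess within arrays, with control spots at weight 0 and outlier spots left out. Spots of a probe were averaged, a probe was kept where 1 same channel exceeded background clearly on each of the 3 arrays (15651 probes), and the brightest probe stood for a gene. Each mean ratio was tested against 0 (lmFit, eBayes, two-sided), and p-values were adjusted by Benjamini-Hochberg over 14183 genes. The fit was tested on simulated data: it did not find every change put in, and a first requirement on how many it should find was not met and was replaced by checks of sign and of false calls. Named genes were the 6 highest and the 6 lowest, members with known roles, members whose probes differ in sign, and the extremes of each other list. Rps27 and the other genes named outside that rule were chosen after their values were seen. The members and lists were chosen with earlier results of these data known. Alternatives changed the dye scaling, background, filter, probe rule, test and arrays. Centring on the brightest 10% of spots and a loess without ribosomal protein spots were added after seeing the data. Some genes are not reported here, though the counts include them. Drawings were made with Python 3.11.15 and matplotlib 3.10.9.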

Additional observations from a re-analysis of the deposited data

How the results depend on the processing

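The count of higher ribosomal protein genes rose most with the scaling between the dyes, and the count of lower ones went to 0 with 2 of the scalings and with both t-tests. After loess 13 were higher and 13 lower. Median centring gave 65 and 0 (median 0.78; all genes 35.2% higher and 8.79% lower) and no normalization between the dyes 75 and 0 (median 1.13; all genes 56.5% and 2.14%). The authors' log ratio gave 7 and 5 (9.09% and 6.49%; all genes 15.2% and 22.4%), normexp with offset 0 gave 9 and 6 (11.7% and 7.79%; all genes 11% and 24%), and separate channels without the array as a replicate block gave 7 and 11 (9.09% and 14.3%; all genes 7.3% and 21.6%). The methods' t-test between groups, run on the 2 channels, gave 1 and 0 after adjustment (6 and 14 at an unadjusted p under 0.05, all genes 0.444% and 2.04% after adjustment). A t-test on the 3 log ratios, which the methods do not name, gave 0 and 0 (7 and 19 unadjusted, all genes 0% and 0.0141%). The separate channels and the test on 2 channels take the 3 control values as replicates, although the control is counted as 1 sample. Median centring on the brightest 10% of spots, added after seeing the data, gave 10 higher (13%) and 7 lower (9.09%), against 2.93% and 60.6% of all genes. Without array 1 there were 7 higher and 12 lower, without array 2 there were 14 and 14, and without array 3 there were 1 and 6, where the calls among all genes fell too, to 1.29% and 10.1%. The cause of these differences was not tested. Over 76 named genes and 17 settings, 971 comparisons kept direction and call, 165 lost the call, 36 gained it and 119 turned direction; Synpo was not tested where both channels had to pass. Values that turned sign follow. With centring on the brightest 10% of spots: Adgre1 -0.32, Emcn -0.21, Ptprc -0.35, Rpl28 0.021, Rpl31 0.096, Rpl39 0.010, Rpl9 0.053, Rps15a 0.036, Rps6ka3 -0.11, Wt1 -0.064. With median centring: Alas2 0.23, C1qb 0.23, Eef1d 0.32, Eif3j 0.0044, Hba-a1 0.30, Mki67 0.19, Pecam1 0.14, Psma4 0.26, Rpl11 0.74, Rpl13a 0.67, Rpl14 0.23, Rpl17 0.29, Rpl18 0.16, Rpl19 0.66, Rpl21 0.52, Rpl22 0.64, Rpl24 0.71, Rpl28 0.78, Rpl31 0.85, Rpl32 0.48, Rpl35 0.69, Rpl36 0.38, Rpl37a 0.52, Rpl38 0.56, Rpl39 0.77, Rpl4 0.28, Rpl9 0.81, Rplp0 0.72, Rplp2 0.24, Rps15a 0.79, Rps19 0.63, Rps2 0.66, Rpsa 0.62, Slc12a1 0.64, Slc22a8 0.52. With no normalization: Alas2 0.58, C1qb 0.58, Dkc1 0.0093, Eef1a2 0.31, Eef1d 0.67, Eif3j 0.35, Hba-a1 0.65, Mki67 0.54, Pecam1 0.49, Psma4 0.61, Rpl11 1.09, Rpl13a 1.02, Rpl14 0.58, Rpl17 0.64, Rpl18 0.51, Rpl19 1.01, Rpl21 0.87, Rpl22 0.99, Rpl24 1.06, Rpl28 1.13, Rpl31 1.20, Rpl32 0.83, Rpl35 1.04, Rpl36 0.73, Rpl37a 0.87, Rpl38 0.91, Rpl39 1.12, Rpl4 0.63, Rpl9 1.16, Rplp0 1.07, Rplp2 0.59, Rps15a 1.14, Rps19 0.98, Rps2 1.01, Rpsa 0.97, Slc12a1 0.99, Slc22a8 0.87, Slc4a1 0.34, Synpo 0.25. With the authors' log ratio: Rpl19 0.016, Rpl31 0.081, Rpl39 0.024, Rpl9 0.049, Rps15a 0.074, Rps3 -0.024. With mean of all probes of a gene: Rpl24 0.029, Rpl28 0.072, Rpl31 0.025, Rpl35 0.10, Rpl35a -0.062, Rpl39 0.090, Rpl9 0.049, Rps15a 0.21, Rps19 0.027, Rpsa 0.080. With normexp with offset 0: Rpl28 0.012, Rpl31 0.078, Rpl39 0.0029, Rpl9 0.037, Rps15a 0.021. With no background correction: Rpl31 0.0060. On leaving out 1 array, these ranges crossed 0: Rpl28 -0.069 to 0.030, Rpl31 -0.041 to 0.046, Rpl35a -0.043 to 0.066, Rpl39 -0.077 to 0.038, Rpl9 -0.11 to 0.045, Rplp1 -0.025 to 0.041, Rps14 -0.10 to 0.096, Rps3 -0.062 to 0.091, Slc12a3 -0.10 to 0.61, Slc22a8 -0.49 to 0.13, Synpo -0.031 to 0.014. All 77 ribosomal protein genes tested were well above background in both channels.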
